A study of Mus musculus with 6 samples.

Results

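Glycolysis, the pathway that turns glucose into pyruvate and, through lactate dehydrogenase, into lactate, was examined through 10 of its enzymes: *Hk1*, *Hk2*, *Aldoa*, *Aldoc*, *Gapdh*, *Pgk1*, *Eno1*, *Eno2*, *Pkm*, and *Ldha*. The group was picked from measured values of this same comparison, because *Gapdh*, a gene widely used as a reference for RNA levels, was lower in DRGs given AAV5-*V1+V2*. Its members are therefore described without a test. They are 10 of the 48440 rows counted, and all 10 were among the 18593 rows that passed the filter on low counts.

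RNA was sequenced from L3/4 dorsal root ganglia (DRGs), which hold the cell bodies of sensory neurons, of WT male mice. One group received AAV5-*Gfp*, an adeno-associated virus carrying green fluorescent protein, and the other AAV5-*V1* mixed with AAV5-*V2* (AAV5-*V1+V2*), which carry the 2 transcript variants of the long noncoding RNA *NIS-lncRNA*, with 3 libraries per group. The text deposited with the data gives both 4 and 5 weeks after microinjection. Injected virus was common to all libraries, each group had its own virus preparation, and the transcripts and the preparation cannot be told apart. The labels do not say whether the 3 libraries of a group came from separate animals, so p-values measure the spread between these libraries, which may be technical. The level of *NIS-lncRNA* itself was not analysed here. Libraries held 32025612 to 34764282 counted reads.

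Glucose is trapped in the cell by hexokinase, split by aldolase, oxidized by glyceraldehyde-3-phosphate dehydrogenase, and carried through phosphoglycerate kinase, enolase, and pyruvate kinase to pyruvate. Several steps have isozymes with a known tissue preference. *Eno2* encodes neuron-specific enolase, *Hk1* is the main hexokinase of brain and nerve, *Aldoc* is the aldolase of nervous tissue, and *Hk2* and *Pkm* are known to be induced in activated immune and dividing cells. Neurons depend heavily on glucose for their energy.

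Reads of several members, *Gapdh*, *Eno1*, and *Pgk1* among them, can also come from identical or near-identical copies elsewhere in the genome. This is shown here for *Gapdh* and *Eno1*, because it limits the counts that follow. *Gapdh* lies at chr6:125161715-125166467 on the minus strand of GRCm38, and its processed pseudogene *Gm13394* differs from the spliced transcript at 1 base over 1000 aligned bases. *Eno1* lies at chr4:150236721-150248879 on the plus strand, and its pseudogene *Gm4735* differs at 5 bases over 1302. The stretches around a differing base are printed 5′ to 3′, with that base in capitals. They come from exon 4 of *Gapdh* (chr6:125162996-125163036, minus strand) and *Gm13394* (chr2:28934244-28934284, minus strand), and from exon 8 of *Eno1* (chr4:150246608-150246648, plus strand) and *Gm4735* (chr2:80837846-80837886, plus strand), both exons coding there.
Gapdh: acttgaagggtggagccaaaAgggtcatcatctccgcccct
Gm13394: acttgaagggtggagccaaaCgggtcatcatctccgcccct
Eno1: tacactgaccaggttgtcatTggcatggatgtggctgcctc
Gm4735: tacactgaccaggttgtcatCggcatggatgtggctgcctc
The differences are A438C for *Gm13394* and T1124C for *Gm4735*, with the member's base first and the copy's base last, counted from 1 at the 5′ end of the member's GENCODE M21 transcript of 1272 and 2027 bases, respectively. Within either stretch the member and the copy are told apart by that base.

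The copies carried many of the reads. Over the 6 libraries, 20068 reads were counted on *Eno1* and 32935 on copies of at least 90% identity, so that the row of *Eno1* held 37.9% of the sum. Of the copies, *Eno1b* held 19742 reads and *Gm4735* 13174. The row of *Gapdh* held 47930 reads, which was 89.3% of the sum with its copies, 91 of which carried any of the other 5759 reads. That share was 89.2%, 91.6%, and 89.7% in the AAV5-*Gfp* libraries and 87.4%, 88.9%, and 87.7% with AAV5-*V1+V2*, without overlap. Among the copies of *Gapdh*, *Gm10359* and *Gm12671* matched it at 100% identity. The share therefore depends on how multiply mapped reads were handled. *Pgk1* held 99.5% of its sum, but its 2 copies matched it at 100% identity, so that split depends on how multiply mapped reads were handled. The remaining 7 members held nearly all of theirs. The level of *Eno1* is therefore uncertain. The share on its own row was between 36.1% and 38.9% in all libraries, with every AAV5-*V1+V2* library slightly below every AAV5-*Gfp* library. Adding the copies changed the log2 fold change of *Eno1* from -0.21 to -0.15 and that of *Gapdh* from -0.45 to -0.42.

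**Figure D1:**
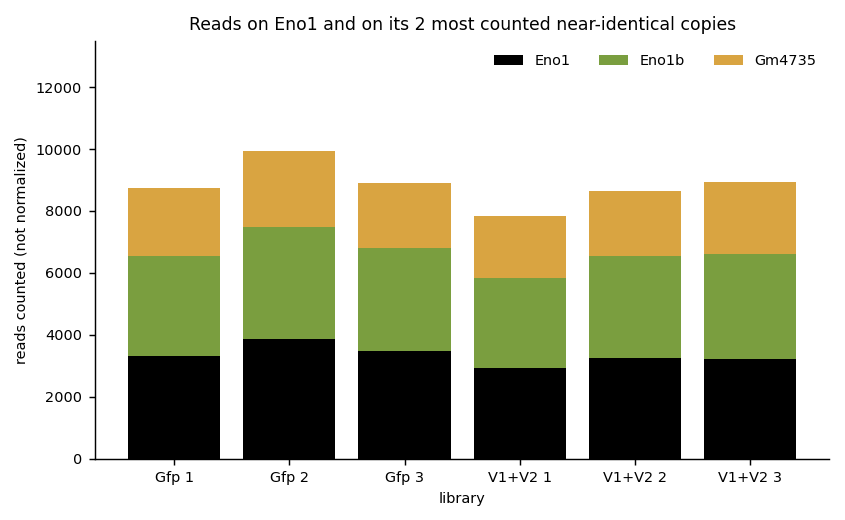
Reads counted, without normalization, on *Eno1* (black) and on its 2 most counted copies, *Eno1b* (green) and *Gm4735* (yellow), stacked for each of the 6 libraries. In every library the black part is smaller than the 2 others together, with 36.1% to 38.9% of the reads on *Eno1* itself.

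*Gapdh*, the enzyme of the oxidizing step, had nearly the same level in every AAV5-*Gfp* library, at 279, 279.6, and 278 CPM (reads relative to the library's total, scaled by TMM) in replicates 1, 2, and 3, the order used for all values below. With AAV5-*V1+V2* it was at 173, 227, and 212 CPM. The groups did not overlap, and the spread was wider with AAV5-*V1+V2* (204 ± 27.8, SD, n = 3) than with AAV5-*Gfp* (279 ± 0.713, SD, n = 3). The fitted log2 fold change was -0.45 (SE 0.11), a change of -26.8%. *Gapdh* was the only one of the 10 members to pass the threshold across all genes (Benjamini-Hochberg adjusted p under 0.05, edgeR's quasi-likelihood test), at a rate of 5.27% called lower among the 18593 genes tested. Since *Gapdh* was the reason for the choice of the group, nothing is read from that call. It was no longer called when any 1 of AAV5-*Gfp* replicates 1, 2, and 3 was left out, although its log2 fold change stayed at -0.45, and over all genes 0 to 59 were then called lower instead of 980.

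The hexokinases, which commit glucose to the cell, differed from each other. *Hk1* was at 206, 197, and 222 CPM in the AAV5-*Gfp* libraries and at 148, 182, and 193 CPM with AAV5-*V1+V2*, with a log2 fold change of -0.25 (SE 0.11). *Hk2* was at 6.60, 8.05, and 5.74 CPM with AAV5-*Gfp*, and at 23.4, 11.1, and 10.2 CPM with AAV5-*V1+V2*. All AAV5-*V1+V2* libraries thus lay below the others for *Hk1* and above them for *Hk2*. The log2 fold change of *Hk2* was 1.13 (SE 0.32), and 0.66 once AAV5-*V1+V2* replicate 1, its highest library, was left out. *Hk2* was not called, where 10.1% of all genes were called higher. It was called without AAV5-*V1+V2* replicate 1 or replicate 3, and under several other settings. In reads, *Hk2* made up 3.21, 4.09, and 2.59 per 100 *Hk1* reads with AAV5-*Gfp* and 15.8, 6.14, and 5.29 with AAV5-*V1+V2*, without overlap.

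The aldolases split the sugar into 3-carbon units. *Aldoa* was at 1129, 1124, and 1149 CPM with AAV5-*Gfp* and at 778, 940.3, and 995 CPM with AAV5-*V1+V2*. *Aldoc* was at 109, 101, and 108 CPM with AAV5-*Gfp* and at 65.6, 86.2, and 93.7 CPM with AAV5-*V1+V2*. Neither gene's groups overlapped, and the log2 fold changes were -0.33 (SE 0.11) and -0.37 (SE 0.13), neither of them called. The ratio of the isozymes was much the same in both groups, with 9.33 ± 0.338 reads (SD, n = 3) of *Aldoc* per 100 of *Aldoa* with AAV5-*Gfp* and 9.01 ± 0.514 for AAV5-*V1+V2*.

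Phosphoglycerate kinase, the first step that yields ATP, was among the least different. *Pgk1* was at 204, 215, and 209 CPM with AAV5-*Gfp* and at 179, 204, and 201 CPM with AAV5-*V1+V2*. The groups overlapped narrowly, since AAV5-*V1+V2* replicate 2 lay just above AAV5-*Gfp* replicate 1, and the log2 fold change was -0.10 (SE 0.08).

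The enolases, which form phosphoenolpyruvate, did not overlap between groups. *Eno1* was at 103, 112, and 111 CPM with AAV5-*Gfp* and at 88.9, 97.9, and 94.1 CPM with AAV5-*V1+V2*. *Eno2* was at 377, 349.8, and 370.2 CPM with AAV5-*Gfp* and at 238, 300.3, and 328 CPM with AAV5-*V1+V2*. The neuronal form had the more negative log2 fold change, -0.34 (SE 0.12) against -0.21 (SE 0.07) for *Eno1*. The ratio of *Eno1* to *Eno2* reads nevertheless overlapped between groups, with 29.7 ± 2.33 (SD, n = 3) per 100 with AAV5-*Gfp* and 32.9 ± 4.37 for AAV5-*V1+V2*. It uses the row of *Eno1* alone, with 37.9% of the reads on *Eno1* and its copies, so its size is uncertain.

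Pyruvate kinase closes the pathway and lactate dehydrogenase regenerates the cofactor that *Gapdh* uses. *Pkm* was at 1057, 1015, and 1080.2 CPM with AAV5-*Gfp* and at 745, 899, and 964 CPM with AAV5-*V1+V2*, with a log2 fold change of -0.27 (SE 0.12). *Ldha* was at 163, 167, and 157 CPM with AAV5-*Gfp* and at 147, 159, and 155 CPM with AAV5-*V1+V2*, with a log2 fold change of -0.08 (SE 0.07). The groups were apart for *Pkm* and overlapped for *Ldha*, and neither gene was called. Because the counts are per gene, the M1 and M2 splice forms of *Pkm* could not be told apart.

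**Figure D2:**
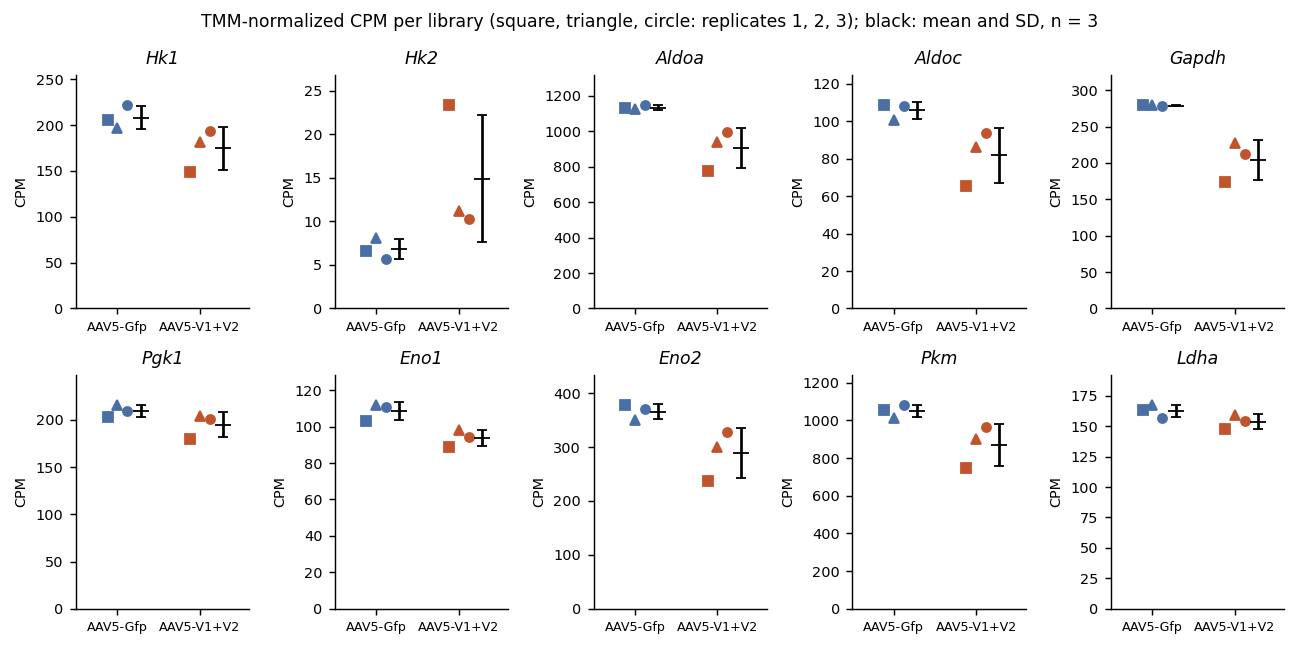
TMM-normalized CPM of the 10 members in each library (blue, AAV5-*Gfp*; orange, AAV5-*V1+V2*; square, triangle, and circle for replicates 1, 2, and 3), each panel with its own axis from 0, and the mean with SD in black. All AAV5-*V1+V2* libraries lie below all AAV5-*Gfp* libraries in 7 panels and above them in the panel of *Hk2*, and AAV5-*V1+V2* replicate 1 is the lowest of all libraries in the other 9 panels.

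Over the 10 members, 9 had a negative log2 fold change, from -0.45 to -0.08, and 1 a positive one. The median was -0.26, against -0.0003 over all genes tested. In 7 members every AAV5-*V1+V2* library lay below every AAV5-*Gfp* library, a pattern found in 22% of all genes tested, and in 1 member every AAV5-*V1+V2* library lay above, a pattern found in 23.4%. As the rule used this contrast, these shares stand beside the counts and nothing is read from them. The signs were kept with total counts, RLE, and upper-quartile factors. Scaled by *Gapdh* alone, the other 8 members with negative values turned positive, from 0.08 to 0.39, while the median of all genes moved to 0.46. These signs follow from *Gapdh* having the most negative value of the members. Scaled by the geometric mean of 20 reference genes, the median of all genes moved to -0.17. The log2 fold changes of those 9 members became -0.61 to -0.24, and 8 were called lower. Over all 18593 genes tested, 4049 were called lower on that scale, against 980 in the main fit. The 20 genes include *B2m* and *Gusb*, themselves called higher with AAV5-*V1+V2* (log2 fold changes 1.997 and 0.85).

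AAV5-*V1+V2* replicate 1 stood apart within its group. Summed over the 10 members, the level was 3633, 3569, and 3689 CPM with AAV5-*Gfp* and 2587, 3108, and 3246 CPM with AAV5-*V1+V2*. Without replicate 1 the median log2 fold change of the members was -0.17, and 9 of 10 were still negative. All 9 of these values were then nearer to 0, at -0.34 for *Gapdh*, -0.23 for *Aldoc*, -0.22 for *Aldoa*, -0.21 for *Eno2*, -0.17 for *Eno1* and *Pkm*, -0.15 for *Hk1*, and -0.04 for *Pgk1* and *Ldha*.

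Levels of neuron and leukocyte markers also differed between the groups, while most markers of the other cell types counted were not called. In bulk RNA, fewer cells of a type and less RNA per cell cannot be told apart. The 15 neuron markers (among them *Tubb3*, *Rbfox3*, and *Avil*) summed to 11544, 10832, and 11789 CPM with AAV5-*Gfp* and to 6976, 9625, and 10135 CPM with AAV5-*V1+V2*. All 15 had a negative log2 fold change, with a median of -0.43. Beside 5.27% of all genes, 3 were called lower: *Rbfox3*, *Syt1*, and *Map2* (log2 fold changes -0.93, -0.73, and -0.56, adjusted p = 0.0256, 0.0279, and 0.0454, edgeR). Each of these 3 calls held in 2 of the fits that left out a library and was lost in the others. DESeq2 called 8 of the 15 lower, and with *Gapdh* as the scale *Rbfox3* remained lower and *Uchl1* was called higher. The 15 leukocyte markers summed to 302, 287, and 213 CPM with AAV5-*Gfp* and to 1943, 958, and 715 CPM with AAV5-*V1+V2*, with 14 called higher, among them the B cell gene *Ms4a1* at a log2 fold change of 5.49 (adjusted p = 0.00803, edgeR). Replicate 1 of AAV5-*V1+V2* thus had the lowest neuronal and the highest leukocyte sum, the lowest value of the 9 members with a negative difference, and the highest of *Hk2*. No neuron or leukocyte marker was at 0 in any library. Among 6 proliferation markers 5 were called higher, among 8 satellite glia markers 1 was higher (*Slc1a3*) and 0 lower (2 at an unadjusted p under 0.05, and DESeq2 called *S100b* lower), and among 8 markers of Schwann cell myelin 0 were called in either direction by edgeR, DESeq2, or limma-voom (1 had an unadjusted p under 0.05 in edgeR). Of the 5 erythrocyte and 4 tested adipocyte markers 0 were called by edgeR (1 and 0 at an unadjusted p under 0.05). These calls too depended on the libraries. Of the 6 fits that left out a library, *Slc1a3* was called in 1 and each called proliferation marker in 3. The 14 called leukocyte markers were called in 3 or 4, *Ms4a1* in 4.

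The members were also set against the neuron markers of the same library, a scale that itself shifts all genes upward because the marker sum was smaller with AAV5-*V1+V2*. Per 1000 reads of the 15 neuron markers there were 24.2, 25.8, and 23.6 *Gapdh* reads with AAV5-*Gfp* and 24.9, 23.6, and 20.9 with AAV5-*V1+V2*, and the groups overlapped. *Aldoa*, *Aldoc*, *Pgk1*, *Eno1*, *Eno2*, *Pkm*, and *Ldha* overlapped as well. The summed members stood at 319 ± 9.07 (SD, n = 3) per 1000 with AAV5-*Gfp* and at 338 ± 28.5 for AAV5-*V1+V2*. *Hk1* came to lie above, at 17.8, 18.2, and 18.8 against 21.3, 18.9, and 19.1, and *Hk2* remained above. On this scale the log2 differences ranged from -0.09 for *Gapdh* to 1.41 for *Hk2*, and 8 of 10 were positive. The scale sets these signs, since over 18503 genes with a read in every library the median log2 difference was 0.37 and 86.2% were positive. The scale shifts every gene by the same amount, so it cannot change where a member lies relative to that median. With a median of 0.10 for the members, 9 of 10 lay below it and *Hk2* above, and nothing is read from this. Neuron markers are themselves mRNAs that may change per cell, and the part of the cell types in the differences was not tested.

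**Figure D3:**
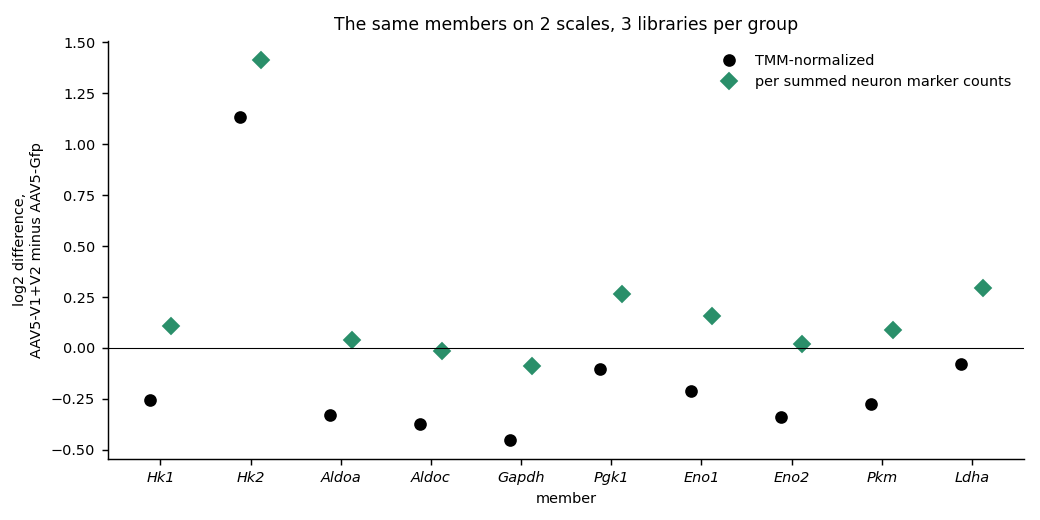
Log2 difference between AAV5-*V1+V2* and AAV5-*Gfp* (y axis) for each member (x axis), after TMM normalization (black circles) and per summed reads of 15 neuron markers (green diamonds), 3 libraries per group. On the TMM scale 9 of 10 points lie below 0. Relative to neuron markers only *Gapdh* and *Aldoc* do, at -0.09 and -0.01, where the median of all genes is 0.37. Scaling by *Gapdh* alone also turned the values of 8 members positive, because *Gapdh* had the most negative value.

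Leukocyte markers were the other comparison for the hexokinases. *Hk3*, a hexokinase known from myeloid cells and not one of the 10, was at 3.90, 4.13, and 4.13 CPM with AAV5-*Gfp* and at 33.5, 14.0, and 9.04 CPM with AAV5-*V1+V2*. It rose with a log2 fold change of 2.21 (SE 0.46, adjusted p = 0.0247, edgeR). Per 1000 leukocyte marker reads, *Hk3* overlapped between groups (15.6 ± 3.40, SD, n = 3, against 14.8 ± 2.30). *Hk2* did not overlap on that scale and lay lower, with 21.9, 28.1, and 26.9 against 12.03, 11.6, and 14.3. The leukocyte scale moved the median of all genes to -2.06 and left 2.2% of them positive, so a negative value on it is common to nearly all genes. *Hk2*, at -1.02, lay above that median. The increase of *Hk2* over its AAV5-*Gfp* level was smaller than that of the summed leukocyte markers, and nothing is read from this. The part of leukocytes in the differences of *Hk2* and *Hk3* was not tested.

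The remaining enzymes of the pathway were counted from a list of 20, of which 17 were tested and *Gapdhs*, *Pgk2*, and *Pklr* were filtered out for low counts. By edgeR, only *Hk3* was called higher and 0 were called lower (7 were lower at an unadjusted p under 0.05), with 12 of 17 values negative and a median of -0.21. DESeq2 called 2 higher, *Hk3* and *Adpgk*, and 4 lower, *Gpi1*, *Pfkm*, *Tpi1*, and *Ldhb*, and limma-voom called 0 in either direction, *Hk3* included. In the upper part of the pathway, the log2 fold changes were -0.21 for *Gpi1*, which isomerizes glucose-6-phosphate, and 0.11, -0.34, and -0.27 for the phosphofructokinases *Pfkl*, *Pfkm*, and *Pfkp*, the main control point of glycolysis. *Adpgk*, an ADP-dependent glucokinase, was at 0.41. In the lower part they were -0.27 for the triosephosphate isomerase *Tpi1*, 0.08 for *Bpgm*, -0.12 and -0.49 for the mutases *Pgam1* and *Pgam2*, -0.50 and -0.21 for *Eno3* and *Eno4*, and -0.28 for *Ldhb*. Apart from *Hk3*, the adjusted p-values of these named enzymes lay between 0.0672 for *Adpgk* and 0.589 for *Bpgm* (edgeR), so none of them passed the threshold. Among the tested enzymes of lower level, *Hkdc1*, at 0.473 CPM with AAV5-*Gfp* and 0.179 CPM with AAV5-*V1+V2*, had the most negative log2 fold change of the list (-1.38, SE 0.38, adjusted p = 0.0516, edgeR) without overlap of the groups. *Eno3*, the muscle enolase, was at 3.75, 13.8, and 5.77 CPM with AAV5-*Gfp* and at 8.48, 4.78, and 3.29 CPM with AAV5-*V1+V2*. The 12 skeletal muscle markers had their highest sum in AAV5-*Gfp* replicate 2 as well, with 36.5, 504, and 184 CPM in the AAV5-*Gfp* libraries and 153, 63.7, and 16.5 CPM in the AAV5-*V1+V2* libraries. The row of *Gapdh*, without its copies, was between 278 and 279.6 CPM in the AAV5-*Gfp* libraries, and any part of muscle RNA in it was not tested. Of the muscle markers *Ckmt2* was called lower (-1.10, adjusted p = 0.0459, edgeR), a call that was lost with limma-voom, with total counts alone, with a replicate block, with *Gapdh* as the scale, and in all but 1 of the fits that left out a library.

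**Figure D4:**
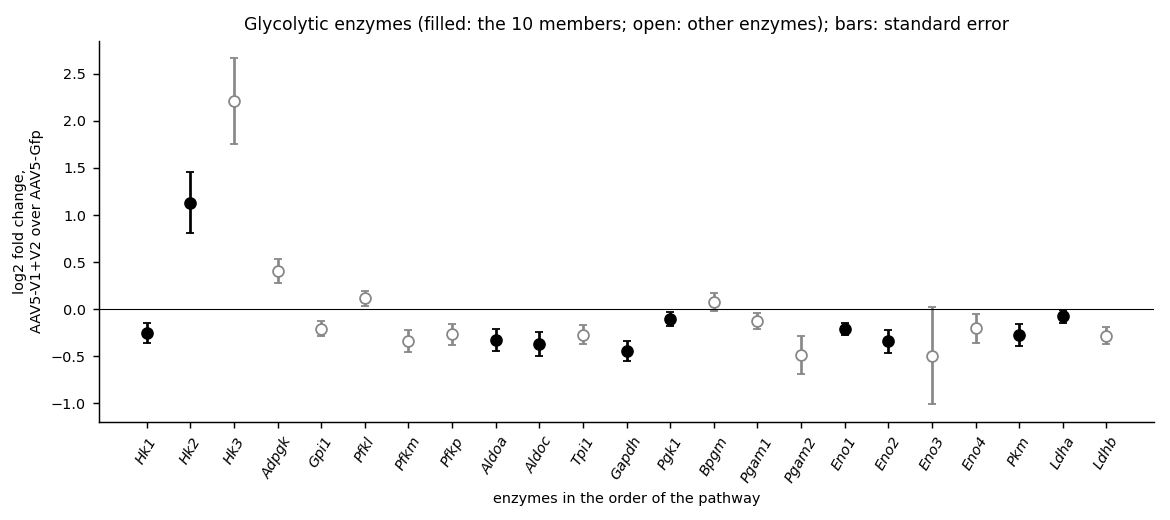
Log2 fold change of AAV5-*V1+V2* over AAV5-*Gfp* (y axis, TMM scale, bars are standard errors, 3 libraries per group) for the 10 members (filled) and 13 other glycolytic enzymes whose mean log2 CPM reached 1 (open), in the order of the pathway. *Hk3* at 2.21 and *Hk2* at 1.13 stand above the rest, and all other points plotted lie between -0.50 and 0.41. Scaled by *Gapdh* alone, the other 8 members below 0 moved above it, because *Gapdh* was the lowest of the members.

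Beside the pathway, transporters, regulators, and neighbouring routes were counted in the same fit. Among 12 transporters of glucose and lactate 0 were called in either direction by edgeR (3 had an unadjusted p under 0.05, and DESeq2 called *Slc16a3* higher), including the neuronal glucose transporter *Slc2a3* (log2 fold change -0.12) and the lactate exporter *Slc16a3* (1.05, adjusted p = 0.099). Of 16 regulators, 3 fell: the mitochondrial coactivator *Ppargc1a* (-0.51, SE 0.10, adjusted p = 0.0235), *Prkaa2*, a catalytic subunit of AMP kinase (-0.54, SE 0.12, adjusted p = 0.0311), and the hypoxia factor *Epas1* (-0.36, SE 0.09, adjusted p = 0.0415, all from edgeR). Scaled by *Gapdh* alone, none of the 3 was called lower and *Epas1* turned positive, at 0.11, and limma-voom did not call *Epas1*. *Hif1a*, the hypoxia factor that induces glycolytic genes, was at 0.31 (adjusted p = 0.159, edgeR). Of 13 genes that bring pyruvate into mitochondria 0 were called by edgeR in either direction (4 had an unadjusted p under 0.05, and DESeq2 called *Mpc1* lower), with a median of -0.13, and among 8 of the pentose phosphate pathway *H6pd* rose (0.59, SE 0.15, adjusted p = 0.0434, edgeR, not called by limma-voom). Together these 5 lists had 2 genes called higher and 3 lower of 66 tested, beside 10.1% and 5.27% over all genes. *Hk3*, *H6pd*, and the 3 regulators lost their calls when any 1 of the AAV5-*Gfp* libraries was left out. Without AAV5-*V1+V2* replicate 2, *H6pd* and the 3 regulators were not called either. *Epas1* was called in only 1 of the fits that left out a library.

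As a reference, *Gapdh* was set against 20 genes that are used in the same way. By log2 fold change these ranged from -0.28 for *Tuba1a* (SE 0.16, adjusted p = 0.237) to 1.997 for *B2m* (SE 0.24, adjusted p = 0.0139, both from edgeR), with a median of 0.05. *B2m*, a component of MHC class I, and *Gusb*, a lysosomal enzyme (0.85, adjusted p = 0.0153, edgeR), rose. At an unadjusted p under 0.05, 5 of the 20 were higher, and DESeq2 called 7 higher, *Actb*, *Eef1a1*, *Rpl13a*, *Rplp0*, and *Rps18* besides these. By edgeR, 0 of 20 were called lower (0 also at an unadjusted p under 0.05 and by DESeq2 or limma-voom, whereas *Hprt* and *Tfrc* were called lower when all 20 genes set the scale). The ratio of *Gapdh* to each of them was lower in every AAV5-*V1+V2* library than in every AAV5-*Gfp* library. The log2 difference of that ratio was smallest against *Tuba1a* (-0.16) and largest against *B2m* (-2.44). Against *Actb* it was -0.69, *Hprt* -0.33, and *Ppia* -0.27. All 20 ratios share the *Gapdh* reads, whose lower level was the reason for the choice of the group, so nothing is read from them.

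**Figure D5:**
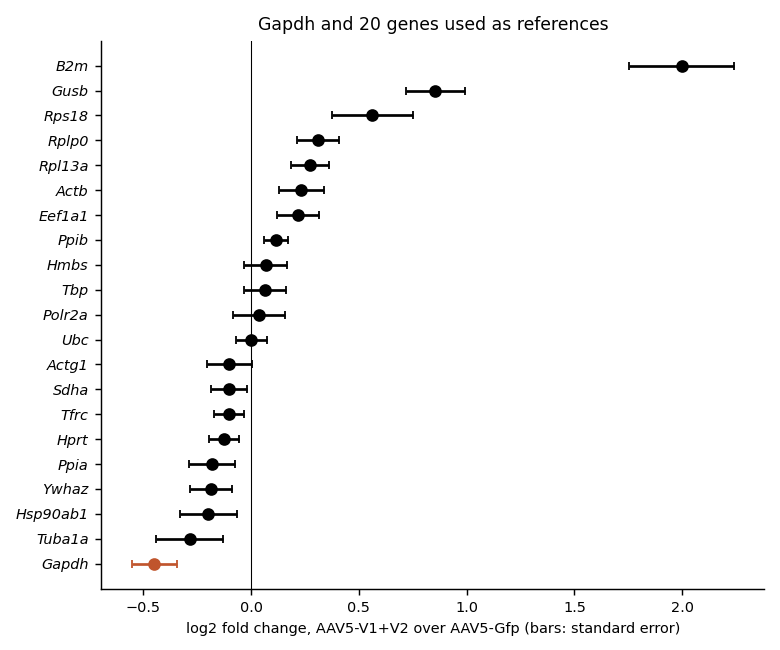
Log2 fold change (x axis, TMM scale, bars are standard errors, 3 libraries per group) of *Gapdh* (orange) and of 20 genes used as references (black), ordered by value. *Gapdh*, for whose lower level the group was picked, is the lowest of the 21 at -0.45, and *B2m* at 1.997 the highest. Scaled by *Gapdh* alone, the 8 references below 0 moved above it, because the lowest gene then set the scale.

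Levels between genes were compared per kilobase of all annotated exons. In CPM per kilobase with AAV5-*Gfp*, *Aldoa* stood highest at 389.5 ± 4.43 (SD, n = 3), followed by *Pkm* at 210.1 ± 6.56. *Pgk1* (93.3 ± 2.64), *Eno2* (77.7 ± 3.04), *Gapdh* (67.5 ± 0.173), and *Ldha* (49.0 ± 1.57) came next on that scale. *Aldoc* (32.4 ± 1.35), *Hk1* (24.4 ± 1.48), *Eno1* (20.2 ± 0.903), and *Hk2* (1.14 ± 0.196) were the lowest. The value of *Eno1* leaves out its copies, which held more reads than its own row, so its place in this order is uncertain. The order of the means was the same with AAV5-*V1+V2*, and with AAV5-*Gfp* no neighbours in it overlapped. It depends on the length taken for a gene: per kilobase of the longest coding transcript, *Gapdh* with AAV5-*Gfp* was at 196 CPM per kilobase and at rank 3 instead of 5, and *Eno1* moved from rank 9 to rank 7. Per kilobase of the longest transcript of any kind, which for *Gapdh* is not a coding one, *Gapdh* was at 84.8 CPM per kilobase and at rank 6, below *Ldha* at 89.4.

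Over the 6 libraries, the log2 CPM of the members followed that of *Gapdh* with Pearson's r between 0.86 for *Ldha* and 0.97 for *Aldoa*, and *Hk2* ran opposite with r = -0.95. The 5 genes most like *Gapdh*, among 5807 whose mean log2 CPM reached 5, were *Gnai1* (r = 0.998), *Ndufv3* (0.996), *Mgat3* (0.996), *Ap1ar* (0.995), and *Rusc1* (0.993). These values describe the same 6 libraries, which fall into the 2 groups and share the position of AAV5-*V1+V2* replicate 1, and they are given without a test.

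The promoters were searched for ACGTG, 1 form of the core that hypoxia-inducible factors bind, on either strand (CACGT on the other). Each strand's matches were counted also where they overlap. The form GCGTG was not searched, so a window without a match may still hold a core. RefSeq windows of GRCm38.p6 from 250 bases before to 50 after a start were given for all 10 members. Of their 18 windows 9 held a match, beside 19.6% of 32851 windows of all genes. In at least 1 window 8 of 10 members had one, whereas 21.8% of 27025 genes did. Some windows of a member overlap each other, and a gene with more windows has more places for a match. *Eno1* and *Eno2* had no ACGTG on either strand. The 250 bases before the start are printed for *Hk2* (chr6:82774455-82774704, minus strand) and *Gapdh* (chr6:125165774-125166023, minus strand), the members with the most positive and the most negative difference, with matches in capitals.
Hk2: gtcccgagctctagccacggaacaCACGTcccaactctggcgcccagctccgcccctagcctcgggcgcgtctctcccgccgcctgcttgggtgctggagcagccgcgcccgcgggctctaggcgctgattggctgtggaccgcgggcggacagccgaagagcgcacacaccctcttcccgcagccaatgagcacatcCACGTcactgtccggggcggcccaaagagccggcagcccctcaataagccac
Gapdh: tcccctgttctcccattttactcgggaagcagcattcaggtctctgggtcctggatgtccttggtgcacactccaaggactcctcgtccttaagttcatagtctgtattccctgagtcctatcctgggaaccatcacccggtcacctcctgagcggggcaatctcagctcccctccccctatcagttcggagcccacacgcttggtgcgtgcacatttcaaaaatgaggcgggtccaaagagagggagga
*Hk2* held 2 matches in this stretch and *Gapdh* 0, with 1 for *Gapdh* in its full window, at or after the start. The start that RefSeq gives here for *Gapdh* lies inside the longer GENCODE gene. *Ldha*, whose groups overlapped, held 5 in 1 of its windows. A match describes these letters only.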

How the data were processed

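DRG RNA of 3 AAV5-*Gfp* and 3 AAV5-*V1+V2* libraries was sequenced with a stranded total RNA kit. Per gene symbol, the authors deposited unnormalized read counts. The submitters' processing notes name the build GRCm38, while the aligner, annotation, use of strand, and handling of multiply mapped reads are not given in the sources used here. Total counts were 32025612 to 34764282 per library.

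Counts were filtered by filterByExpr, normalized by TMM, and tested over all genes with edgeR 4.0.16 (R 4.3.3, glmQLFit and glmQLFTest, no covariate, adjusted p under 0.05). SE was obtained from the coefficient and the root of its F statistic. The fit was tested on simulated data. Members and lists were chosen with earlier results of these data known. Named genes were all members, *Tuba1a* and the extreme reference genes, up to 6 called genes per other list, other glycolytic enzymes whose mean log2 CPM reached 1, and the 5 genes most correlated with *Gapdh*. Other genes (*Slc2a3*, *Slc16a3*, *Hif1a*, *Mpc1*, *Hkdc1*, *Tubb3*, *Avil*, *Uchl1*, *S100b*, *Actb*, *Hprt*, *Ppia*, *Tfrc*, *Eef1a1*, *Rpl13a*, *Rplp0*, and *Rps18*) were named after their values were seen. The ratios to marker sums were also chosen with these values known. Copies were found with blastn 2.17.0 (at least 90% identity over at least 70% of the copy) in GENCODE M21. Alternatives were other scalings, filters, DESeq2 1.42.0, limma-voom (limma 3.58.1), a replicate block, copies, and leaving out libraries. Some enzymes of the pathway list are not reported here by name.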

Additional observations from a re-analysis of the deposited data

How the results depend on the processing

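Of 18 alternatives (17 for *Gapdh*), 146 of the members' values kept their direction and side of the threshold, 22 came to pass it, and 3 no longer did. The other 8 reversed, all when *Gapdh* alone set the scale, a setting chosen after seeing the data, like the 20 reference genes, the copies found by sequence, and the longest coding transcript. These 8 reversals follow from *Gapdh* having the most negative value of the members, so nothing is read from them. Scaled by *Gapdh*, log2 fold changes were 0.20 for *Hk1*, 0.13 for *Aldoa*, 0.075 for *Aldoc*, 0.35 for *Pgk1*, 0.25 for *Eno1*, 0.11 for *Eno2*, 0.18 for *Pkm*, and 0.39 for *Ldha*. In that setting 3 members were called higher and 0 lower, other pathway genes 35 and 0, and all genes 10050 and 61. With the 20 reference genes, members were 1 and 8, other pathway genes 1 and 25, and genes lower 4049. Of all calls 65.6% were higher, against 99.4% and 27.6% in these settings. DESeq2 called 5 members lower and 1 higher, 8 and 4 other pathway genes, and 1606 genes lower. Limma-voom called 0 other pathway genes higher (8 had an unadjusted p under 0.05 in edgeR). With total counts alone or all rows with a count, 1 member was higher. At an unadjusted p under 0.05, members were 5 lower and 1 higher, other pathway genes 16 and 8, and all genes 2878 and 3577.

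Leaving out each library in turn gave 12 to 2474 genes higher (1872 with all libraries), 0 to 1446 lower (980), 0 to 3 members lower, 0 to 1 higher, 0 to 6 other pathway genes lower, 0 to 4 higher, and -0.52 to -0.34 for *Gapdh*. The lowest counts came without 1 of the AAV5-*Gfp* libraries, where 2 libraries stand for the group. Deviations of same-numbered libraries correlated at 0.036, 0.066, and 0.11. AAV5-*V1+V2* replicates 2 and 3 correlated best with the AAV5-*Gfp* library of the same number, and replicate 1 with AAV5-*Gfp* replicate 2 (0.043). The labels give no pairing beyond the number, and whether the libraries were paired was not tested. With a replicate block, 1 member, *Hk2*, was called higher (1.05), and genes called were 2118 higher and 1341 lower. The cause of these changes was not tested.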
